A study of Oryzias latipes with 20 samples.

Results

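The comparison of day 30 with day 7 set 2 stages of one experiment against each other, both of them after the same transition. It used 6 of the 20 RNA samples of the series and 15947 of the 22615 genes in the table, those with a mean of at least 1 FPKM over the 20 libraries. FPKM counts sequenced fragments relative to transcript length and to all fragments of a library. Samples were chosen by their labelled day and genes by that filter.

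Each sample was a block of medaka (Oryzias latipes) tissue that joined hypothalamus, pituitary and the ventral part of the telencephalon. The day 30 group held 3 samples taken 30 days after the transition to LW conditions, and the day 7 group held 3 samples taken 7 days after it. Both groups had the same constant photoperiod, and the labels give no further treatment, allele, age, sex, number of fish or sequencing batch for either. The abbreviation LW is not spelled out in the labels. Replicate numbers only name the samples, in their order of deposit, and pair none. Replicates are labelled as separate samples, with no statement that each came from another fish, and p-values then measure only how these samples spread, which may be technical.

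Markers of all 3 regions were detected on both days. Telencephalon markers are given below as a summed list, the hypothalamus gene nkx2-1 averaged 7.30 FPKM at day 30 and 6.61 FPKM at day 7, and pomc, the pituitary precursor of corticotropin and melanotropin, averaged 1323 FPKM at day 30 and 707 FPKM at day 7. Spearman correlations across the genes tested ran from 0.968 to 0.971 in the 6 library pairs within a day and from 0.964 to 0.967 in the 9 pairs between the days, and no 2 libraries were identical. Total FPKM per library was 383878 to 400299 at day 30, above the 374770 to 378027 at day 7. The read depth behind these values is unknown, and the number of samples limits the precision.

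The circadian clock of vertebrates is a transcriptional loop. Activators of the CLOCK and ARNTL (BMAL) families switch on genes for period, cryptochrome and NR1D (REV-ERB) repressors, which then act back on the activators. In the fish hypothalamus and pituitary, gonadotropin-releasing hormone, neuropeptides and sex steroids act together on the cells that make the gonadotropins, which drive the gonads, and day length is known to govern this axis in medaka.

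With the spread taken from all 20 libraries, 3 genes passed the threshold between day 30 and day 7, and all 3 were lower at day 30. They were LOC101161642, an uncharacterized gene that the deposited table annotates as a DNA-binding transcription factor, LOC101164758, whose protein is described as the homolog of AUTS2, a transcriptional regulator linked to Polycomb complexes in mammals, and LOC101174341, which encodes the clock repressor NR1D1. In limma's test across all 15947 genes with Benjamini-Hochberg adjustment, 0 genes were higher at day 30 past an adjusted p of 0.05 (0% of genes tested) and 3 were lower (0.0188%). At an unadjusted p under 0.05 there were 805 genes higher (5.05%) and 527 lower (3.30%). The 3 values of day 30 lay above all 3 values of day 7 in 1340 genes (8.40%) and below them in 953 (5.98%), and 53.6% of genes had a positive difference. Counts of list members below are to be read beside these shares.

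LOC101161642 read 9.40, 7.51 and 7.01 FPKM in the 3 samples of day 30, against 17.13, 17.71 and 18.53 FPKM in those of day 7. Every day 30 value was far below every day 7 value. The difference was −1.07 on the log2(FPKM + 1) scale, on which all differences below are given (standard error, SE, 0.13, limma adjusted p = 0.00354). It passed in each of the 20 fits that left out 1 library, with adjusted p up to 0.0452.

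AUTS2 (LOC101164758) read 24.30, 27.44 and 21.54 FPKM at day 30, against 37.26, 43.17 and 36.68 FPKM at day 7. The days did not overlap, and the difference was −0.66 (SE 0.09, limma adjusted p = 0.0219). The call was kept in 15 of 20 fits with 1 library left out. Most of these left out a library of another day, which changed only the spread and kept the difference at −0.66. Among fits without a day 30 or day 7 library, only that without day 30 replicate 2 kept the call (limma adjusted p = 0.0215). It was lost without day 7 replicate 1, 2 or 3 (limma adjusted p = 0.0557, 0.0948 and 0.0611) and without day 30 replicate 1 or 3 (0.0794 and 0.145).

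NR1D1 (LOC101174341) read 6.97, 6.32 and 6.82 FPKM at day 30, against 14.99, 11.66 and 15.29 FPKM at day 7. The day 30 samples lay close together and below all of day 7, with a difference of −0.95 (SE 0.14, limma adjusted p = 0.0324). That call was kept in 14 of 20 fits. It was lost without day 7 replicate 1 or 3 (limma adjusted p = 0.110 and 0.132) and without day 30 replicate 1, 2 or 3 (0.0794, 0.111 and 0.145). It was also lost without day 90 replicate 1 (0.0609). Among fits without a day 30 or day 7 library, only that without day 7 replicate 2 kept the call (limma adjusted p = 0.0222). Fits without a library of another day left the difference at −0.95. With the spread taken from the 6 libraries of day 30 and day 7 alone, none of the 3 calls passed, at limma adjusted p = 0.0575 for LOC101161642, 0.231 for AUTS2 and 0.0709 for NR1D1.

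**Figure D1:**
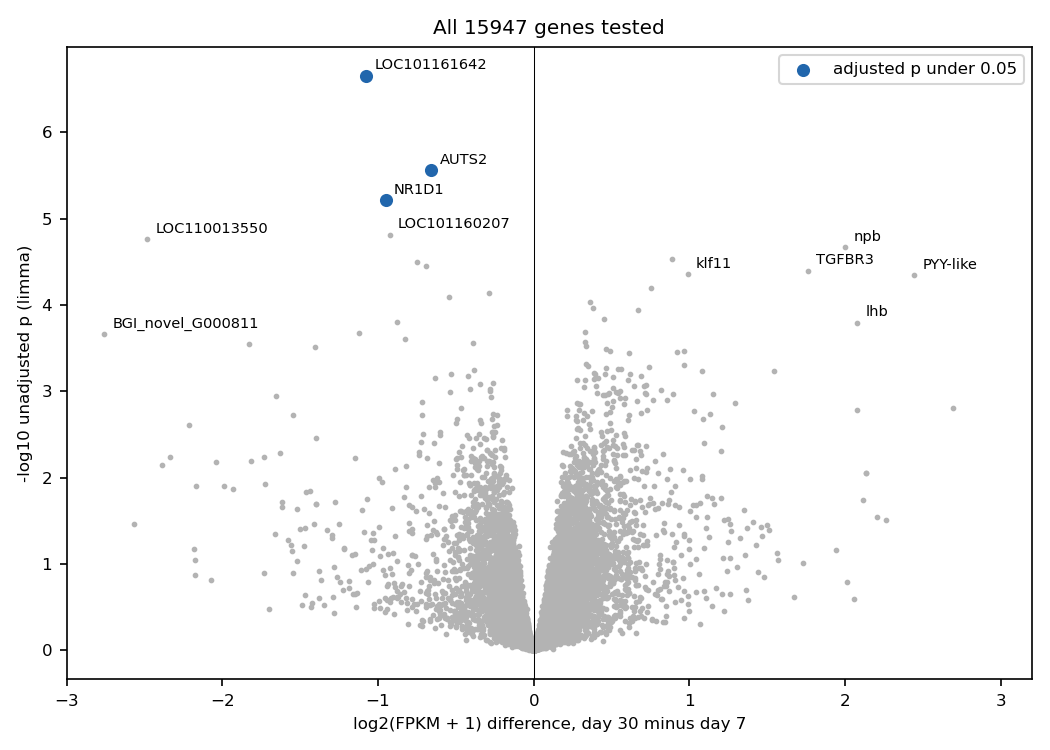
Each point is 1 of the 15947 genes tested, with the log2(FPKM + 1) difference of day 30 minus day 7 on the horizontal axis and −log10 of the unadjusted limma p on the vertical axis. The 3 genes past the adjusted threshold, in blue, all lie on the left, and the gene nearest to it on the right is npb.

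Among clock genes the measured differences went in opposite directions within the repressor class. Of 18 genes for clock repressors tested, NR1D1 fell and no other member passed. The list had 15 positive differences and a median of 0.19, against 0.01 over all genes tested. In 9 members every day 30 value was above every day 7 value, and in 1 member, NR1D1 (LOC101174341), every one was below. The shares over all genes tested were 8.40% and 5.98%. At an unadjusted p under 0.05, 7 were higher and 2 lower, beside 5.05% and 3.30% of all genes. The second lower gene was another NR1D1 gene, LOC101173939, which averaged 2.07 FPKM at day 30 and 3.01 FPKM at day 7.

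The sister genes of NR1D1 had values on the other side. NR1D2 (LOC101156434) read 16.26, 18.53 and 17.65 FPKM at day 30, against 7.15, 9.98 and 8.41 FPKM at day 7, with no overlap and a difference of 0.97 (limma adjusted p = 0.163). A second NR1D2 gene, LOC101163230, averaged 29.6 ± 2.02 FPKM at day 30 and 22.1 ± 1.66 FPKM at day 7 (SD, n = 3 each). The period gene per1, whose protein blocks CLOCK and ARNTL, read 15.89, 16.32 and 12.95 FPKM at day 30, against 8, 9.98 and 7.88 FPKM at day 7. All day 30 values of per1 were above those of day 7, with a difference of 0.74 (limma adjusted p = 0.201).

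PER2 (LOC101159817) stood at 48.21, 48.10 and 47.79 FPKM at day 30, against 27.51, 41.64 and 27.17 FPKM at day 7. Its day 30 samples were nearly equal, while day 7 replicate 2 lay well above the other 2. The DEC family repressor bhlhe41 stood at 38.09, 36.03 and 43.26 FPKM at day 30, against 22.27, 26.58 and 31.46 FPKM at day 7. CIPC (LOC101157237), which encodes the CLOCK-interacting pacemaker and is no member of the list, averaged 16.2 ± 1.66 FPKM at day 30 and 7.94 ± 2.02 FPKM at day 7. These repressor genes missed the threshold, with limma adjusted p from 0.163 to 0.429. The 2 most abundant cryptochrome genes overlapped, averaging 54.4 and 48.8 FPKM at day 30, against 45.3 and 48.5 FPKM at day 7.

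Clock activators had the reverse pattern of signs. Of 9 genes tested, 2 had a positive difference, the median was −0.20, and none passed. In 5, every day 30 value was below every day 7 value, and in 2 above, beside 5.98% and 8.40% of all genes. ARNTL2 (LOC101174183), a partner of CLOCK, read 6.64, 5.93 and 6.61 FPKM at day 30, against 12.17, 10.50 and 11.60 FPKM at day 7. The highest day 30 value was well below the lowest of day 7, with a difference of −0.75 (SE 0.13, limma adjusted p = 0.0600). ARNTL1 (LOC101159313) averaged 18.0 ± 0.975 FPKM at day 30 and 23.0 ± 1.93 FPKM at day 7, a difference of −0.34. The ROR-beta-like gene LOC101170052, of the nuclear receptor family that competes with NR1D at its sites, differed by −0.38. The ROR-alpha gene LOC101172927 of the same list went the other way, with a difference of 0.46 and no overlap. It read 3.25, 3.73 and 7.10 FPKM at day 30, against 3.07, 2.89 and 2.98 FPKM at day 7.

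Among the 8 output genes of the bZIP class, which carry clock timing to other genes, 6 had a positive difference, the median was 0.11 and none passed. The repressor NFIL3 (LOC101175377) read 10.92, 9.28 and 9.77 FPKM at day 30, against 18.80, 18.22 and 20.57 FPKM at day 7. Its values did not overlap, and the difference was −0.88 (limma adjusted p = 0.121). TEF (LOC101172818), an activator that binds the same kind of site, averaged 42.1 ± 6.33 FPKM at day 30 and 28.5 ± 2.76 FPKM at day 7. The hour of sampling was not given in the sources used here, and its part in these clock gene values was not tested. Rescaling the libraries to the same total left 12 of 18 repressors, 2 of 9 activators and 4 of 8 output genes positive, with medians of 0.15, −0.25 and 0.06. The median of the output genes was also 0.06 without day 7 replicate 2.

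**Figure D2:**
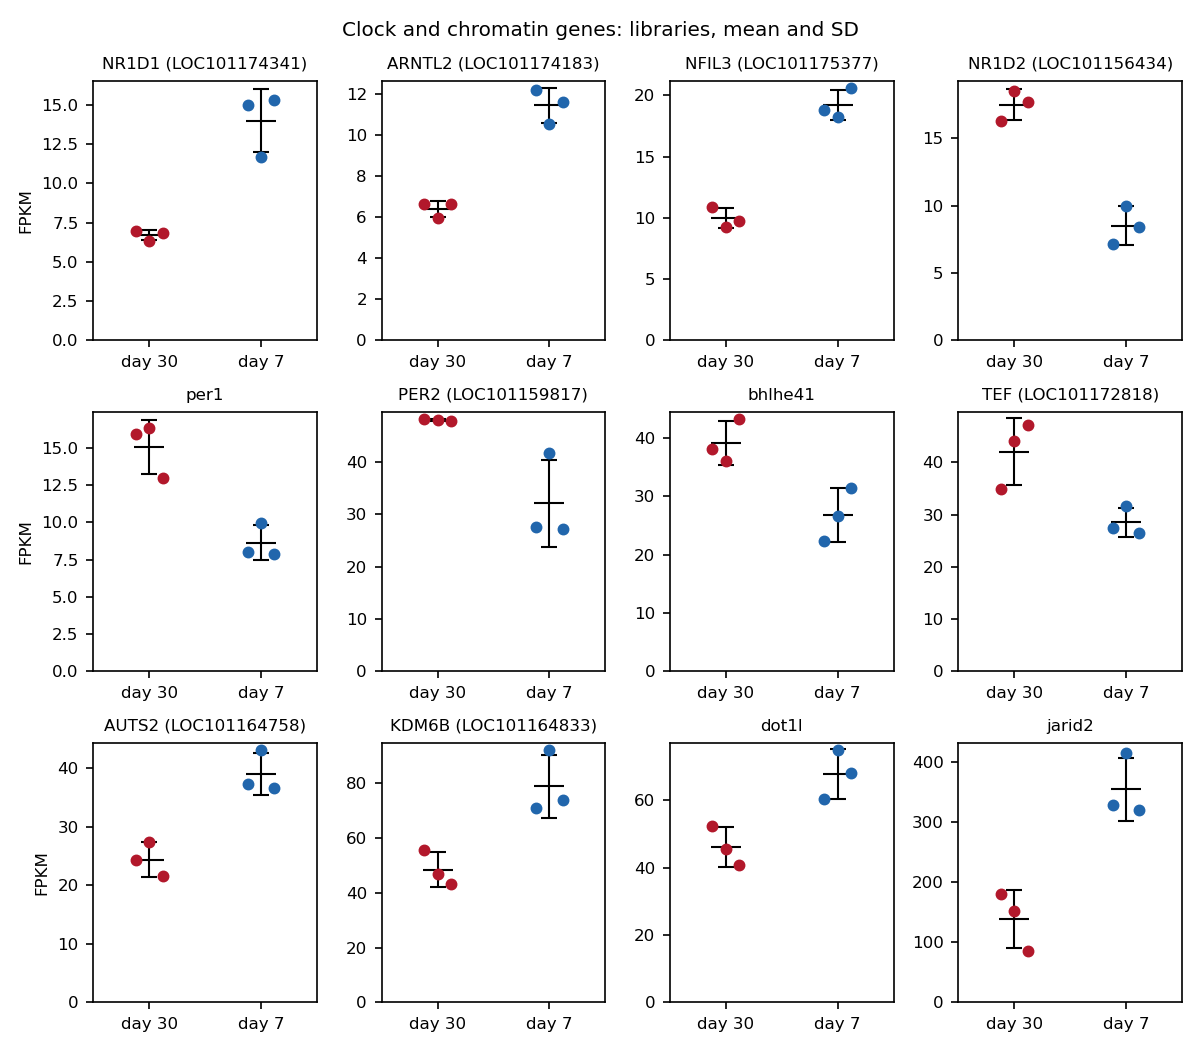
FPKM of 8 clock genes and 4 chromatin genes in the 3 samples of day 30 (red) and of day 7 (blue), with the mean and SD in black. NR1D1, ARNTL2, NFIL3 and the 4 chromatin genes lie lower at day 30, and NR1D2, per1, PER2, bhlhe41 and TEF lie higher.

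Genes for proteins that act on chromatin were less often positive than all genes. Of 98 genes for histone and chromatin modifiers tested, AUTS2 fell and no other member passed. Positive differences numbered 34 (34.7%, against 53.6% of all genes), and the median was −0.04, against 0.01. In 7 members every day 30 value was above every day 7 value and in 8 below, beside the 8.40% and 5.98% of all genes. The number with an unadjusted p under 0.05 was 4 higher and 5 lower, beside 5.05% and 3.30% of all genes. After rescaling to the same total 21 were positive with a median of −0.09, and with 1 library left out the median ran from −0.06 without day 7 replicate 2 to −0.01 without day 30 replicate 3. KDM6B (LOC101164833), which removes the repressive methyl marks of histone H3 lysine 27, read 55.38, 46.83 and 43.03 FPKM at day 30, against 70.78, 91.89 and 73.69 FPKM at day 7. The days did not overlap, with a difference of −0.69 (SE 0.12, limma adjusted p = 0.0600).

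The H3 lysine 79 methyltransferase gene dot1l stood at 52.29, 45.44 and 40.67 FPKM at day 30, against 60.25, 74.91 and 68.15 FPKM at day 7 (difference −0.55, limma adjusted p = 0.0851). Chosen after its values were seen, jarid2 is a Jumonji gene whose product guides Polycomb complexes in mammals, and it is no member of the list. It read 179.83, 151.08 and 85.08 FPKM at day 30, against 328.83, 413.76 and 319.50 FPKM at day 7. All day 7 values were above all day 30 values, but the spread was wide, and the difference of −1.40 had an SE of 0.31 (limma adjusted p = 0.163). The demethylase gene kdm7a, also chosen after its values were seen, read 116.14, 126.21 and 88.85 FPKM at day 30, against 143.35, 231.03 and 148.92 FPKM at day 7. On the other side, the arginine methyltransferase gene prmt5 had a difference of 0.58.

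When all libraries were rescaled to the same total, the gene count became 1 higher (npb) and 9 lower. The 9 were LOC101161642, AUTS2 and NR1D1 with KDM6B, dot1l, ARNTL2, TBL1XR1 (LOC101173456), LOC101160207 and LOC110013550. In 11 of the 11 libraries of days 60 to 150, which no test here compares, the values of LOC101161642, AUTS2, NR1D1, ARNTL2, NFIL3, KDM6B, dot1l, jarid2 and kdm7a lay below the lowest value of day 7. These are the same day 7 values that gave the differences, so the later libraries are no separate support. The share of all genes with this pattern was not counted, and egr1, with a difference of 0.00, had it too. The same limit holds wherever later libraries are set against day 7. LOC101161642 had means of 8.32, 9.55, 11.6 and 14.2 FPKM at days 60, 90, 120 and 150, and NR1D1 means of 5.64, 6.73, 7.91 and 9.89 FPKM. For AUTS2 the means of those 4 days were 21.5, 25.2, 21.7 and 26.3 FPKM, all near the 24.4 FPKM of day 30.

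**Figure D3:**
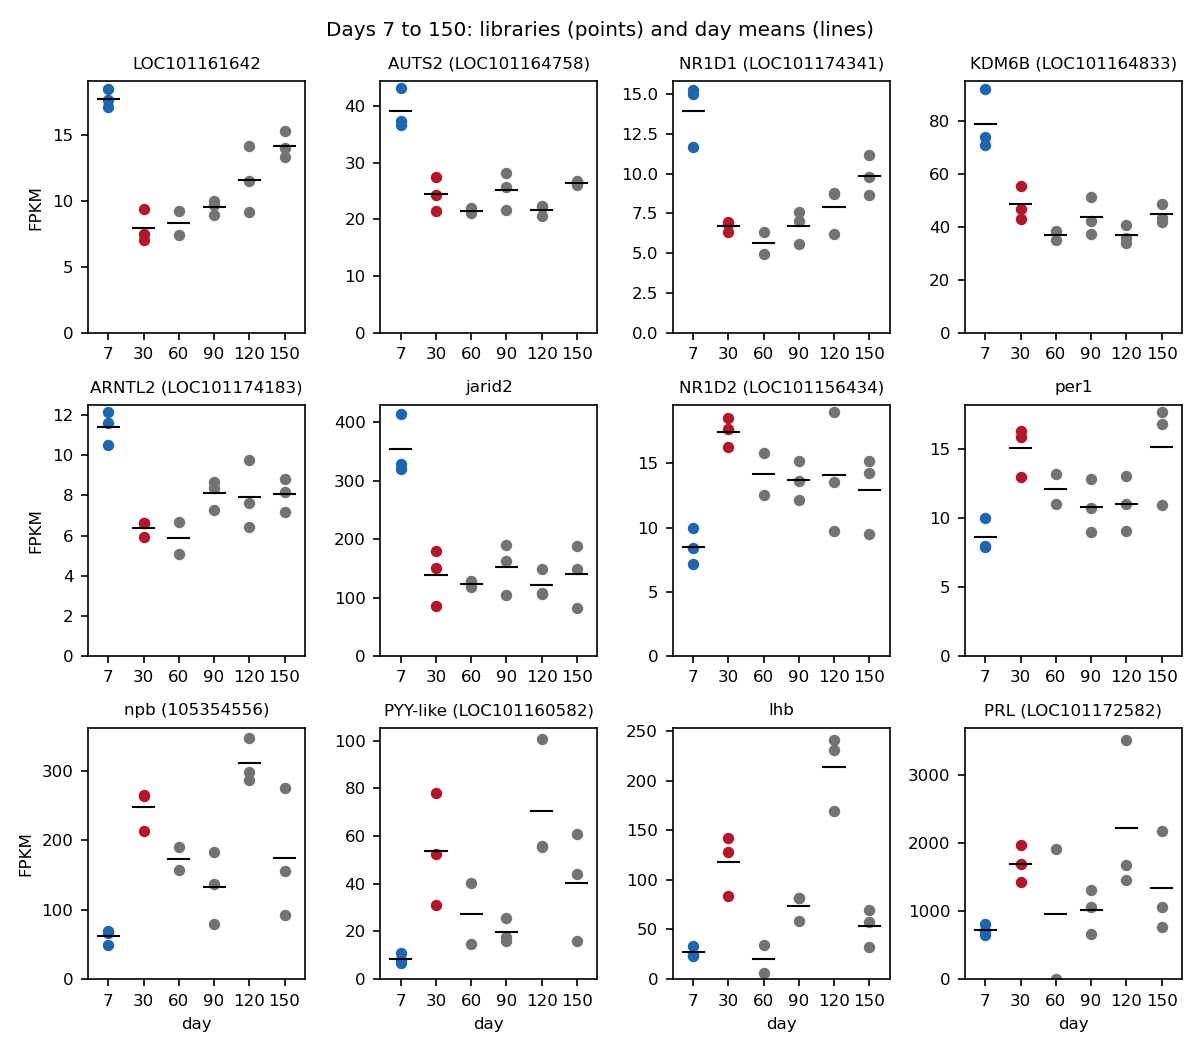
FPKM of 12 genes in every library of days 7 to 150 (points) with day means (lines), day 7 in blue, day 30 in red and later days in grey. The day 7 values of LOC101161642, AUTS2, NR1D1, KDM6B, ARNTL2 and jarid2 lie above all later libraries, and those of npb and the peptide YY-like gene lie below all later libraries.

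Several genes of hormones and neuropeptides had several-fold higher levels at day 30 without passing. Nearest to the threshold was npb, which encodes neuropeptide B, a peptide known in medaka for its sex-biased, oestrogen-dependent expression in the brain. The sex of the fish was not given in the sources used here, and its part in the values of npb and the sex steroid genes was not tested. The npb gene read 263.97, 265.85 and 214.38 FPKM at day 30, against 48.75, 69.53 and 67.12 FPKM at day 7. The means differed 4.01-fold with no overlap, and the log2 difference was 2.0 (SE 0.34, limma adjusted p = 0.0565). It passed in 10 of the 30 other settings, and 11 of 11 later libraries lay above its highest day 7 value. A second gene with the symbol npb averaged 5.65 FPKM at day 30 and 4.81 FPKM at day 7.

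The peptide YY-like gene LOC101160582, of the neuropeptide Y family, read 78.11, 30.98 and 52.25 FPKM at day 30, against 6.75, 11.03 and 7.98 FPKM at day 7. Even the lowest sample of day 30 was above the highest of day 7, and the difference was 2.44 (SE 0.44, limma adjusted p = 0.0600). Peptide YY-A (LOC101155694) averaged 18.1 FPKM at day 30 and 7.95 FPKM at day 7. Among 29 neuropeptide genes tested, 20 had a positive difference with a median of 0.14, and none passed. At an unadjusted p under 0.05, 6 were higher and 0 lower, beside 5.05% and 3.30% of all genes. After rescaling the list had 17 positive and a median of 0.08. The vasoactive intestinal peptide gene vip stood at 36.67, 40.23 and 33.40 FPKM at day 30, against 18.64, 24.12 and 27.46 FPKM at day 7. The corticotropin-releasing hormone gene crh averaged 63.2 FPKM at day 30 and 49.7 FPKM at day 7.

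Of the pituitary gonadotropin subunit genes, lhb and cga did not overlap between the days and fshb did. The luteinizing hormone subunit gene lhb read 128.51, 83.90 and 142.06 FPKM at day 30, against 24.18, 23.19 and 33.48 FPKM at day 7. The day 30 mean was 4.38 times that of day 7 and the values did not overlap, with a difference of 2.08 (SE 0.42, limma adjusted p = 0.121). The spread was shared by all days. Day 60 has 2 libraries, and leaving out either of them removed all of that day's spread. The lhb difference stayed at 2.08 in these fits, which are no separate check. With 1 library of day 30 or day 7 left out, the limma adjusted p of lhb ran from 0.175 to 0.357. The shared alpha subunit gene cga read 433.88, 267.22 and 291.55 FPKM at day 30, against 65.14, 67.93 and 98.77 FPKM at day 7, again without overlap (difference 2.08, limma adjusted p = 0.250). The follicle-stimulating hormone subunit gene fshb had 235.29, 145.28 and 149.28 FPKM at day 30, against 83.19, 99.67 and 163.66 FPKM at day 7. In such bulk tissue, a change in the number of cells of a type and a change in RNA per cell cannot be told apart.

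Of the 12 pituitary hormone genes in the table, 9 passed the filter on low values. Of those, 8 had a positive difference, the median was 1.22, and none passed the test. In 5 there was no overlap with day 30 higher, beside 8.40% of all genes. Prolactin (LOC101172582), which serves water and ion balance in fish, read 1420.81, 1965.59 and 1684.07 FPKM at day 30, against 712.28, 640.65 and 814.91 FPKM at day 7. Every day 30 sample was higher, but the difference of 1.22 had a standard error of 1.26, from a spread shared by all days that includes a later library at 4.79 FPKM. Somatolactin (LOC100049402), a pituitary hormone of fish related to growth hormone, read 285.63, 382.88 and 556.53 FPKM at day 30, against 86.64, 217.19 and 151.64 FPKM at day 7. For pomc the values were 1072.87, 1182.19 and 1713.05 FPKM at day 30, against 740.94, 513.17 and 868.26 FPKM at day 7, again with no overlap.

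Growth hormone (LOC101171460) set the day 7 samples apart from each other. It read 2251.17, 2844.75 and 3163.63 FPKM at day 30, against 4305.95, 148.10 and 556.01 FPKM at day 7, so that day 7 replicate 1 was the highest of the 6 and replicate 2 the lowest. Thyrotropin beta (LOC101171658) overlapped as well, averaging 35.6 FPKM at day 30 and 28.1 FPKM at day 7. Without day 7 replicate 2 the median of the hormone list was 0.91.

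Several values bear on how much pituitary each block held. The summed FPKM of the hormone list was 5857 to 7751 at day 30, against 1759 to 6045 at day 7, or 1.53% to 1.94% of total FPKM at day 30 and 0.469% to 1.60% at day 7. The 20 pituitary cell regulators tested had 13 positive differences and a median of 0.11 (11 and 0.06 after rescaling), and their sum was 1175 to 1383 FPKM at day 30, against 1135 to 1200.1 FPKM at day 7. Its large members chga, scg3, scg2 and pcsk1 averaged 199, 179, 148 and 93.9 FPKM at day 30, against 169, 149, 127 and 80.8 FPKM at day 7. The sum is thus not one of pituitary transcription factors alone. The pituitary transcription factor gene pou1f1, which drives growth hormone, prolactin and thyrotropin cells, read 15.80, 15.50 and 9.37 FPKM at day 30, against 9.81, 5.06 and 5.72 FPKM at day 7. For lhx3, needed for pituitary cell fate, the means were 4.68 FPKM at day 30 and 3.83 FPKM at day 7. For pitx1, another pituitary homeobox gene, they were 5.26 FPKM at day 30 and 3.63 FPKM at day 7. Chosen after their values were seen, pou1f1, lhx3 and pitx1 did not pass the threshold, and pou1f1 and pitx1 overlapped between the days. In the same list 7 members had a negative difference, down to −0.38. The part of pituitary content in the hormone differences was not tested.

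**Figure D4:**
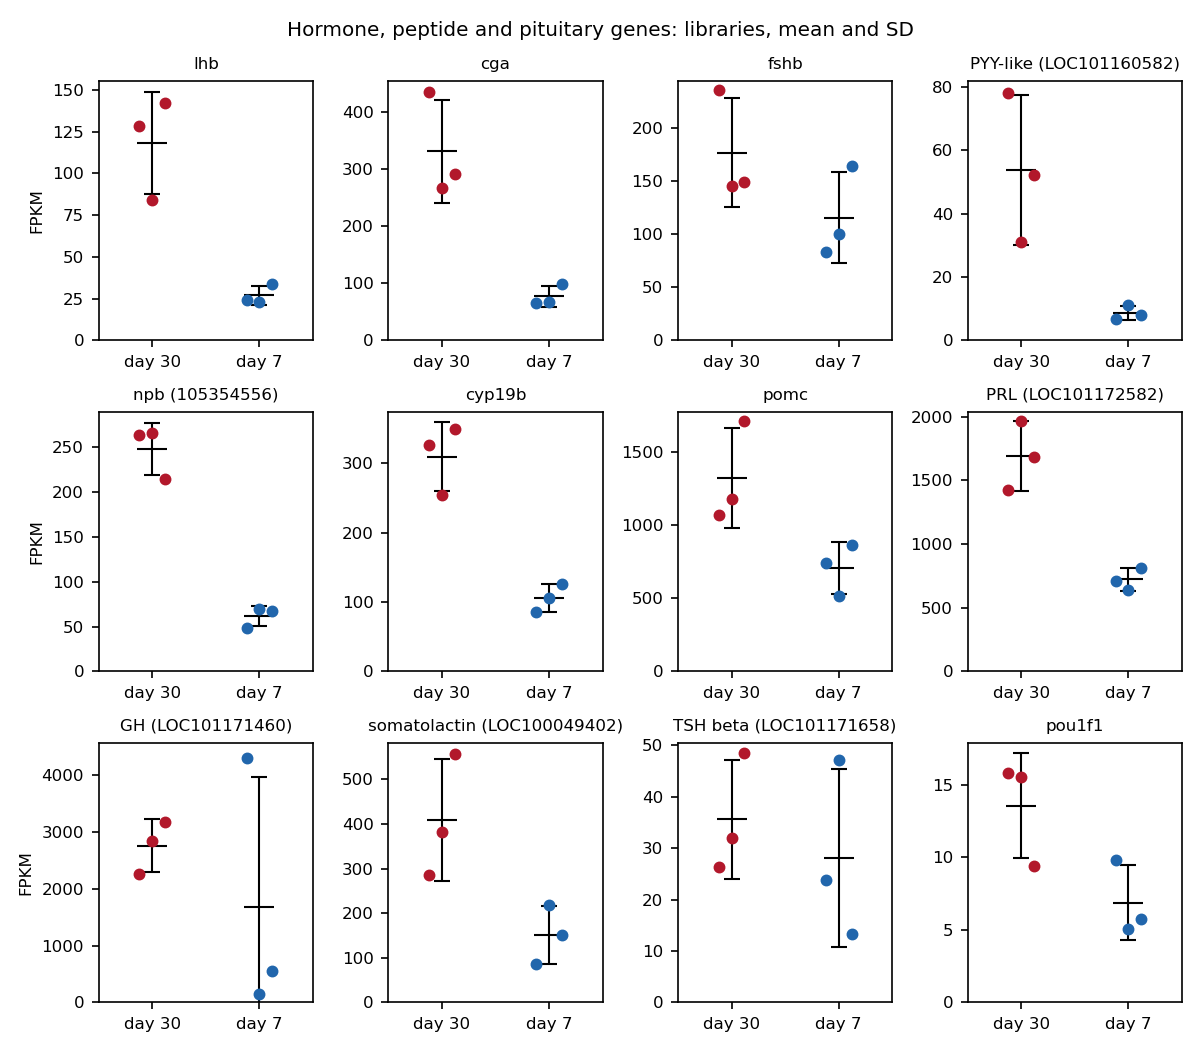
FPKM of 12 hormone, peptide and pituitary genes in the 3 samples of day 30 (red) and of day 7 (blue), with the mean and SD in black. The values of lhb, cga, npb, cyp19b, pomc, prolactin (PRL), somatolactin and the peptide YY-like gene do not overlap. Growth hormone (GH) spreads from 148.10 to 4305.95 FPKM at day 7, and its SD bar there runs below 0 and ends at the axis.

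Genes of sex steroid synthesis and reception had 9 positive differences among 12 tested, with a median of 0.30. None passed, and at an unadjusted p under 0.05 there were 5 higher and 0 lower, beside 5.05% and 3.30% of all genes. After rescaling the list had 8 positive and a median of 0.25. Brain aromatase (cyp19b), the enzyme that turns androgens into oestrogens in radial glia of the fish brain, read 326.30, 253.91 and 349.68 FPKM at day 30, against 86.10, 106.24 and 125.43 FPKM at day 7. The means differed 2.93-fold without overlap, and the log2 difference was 1.54 (SE 0.36, limma adjusted p = 0.201). The whole list of 13 radial glia and astrocyte markers tested summed to 1832 to 2160.2 FPKM at day 30 and 1669 to 2056 FPKM at day 7, with a median difference of −0.02 that was −0.07 after rescaling, −0.10 without day 7 replicate 1 and 0.07 without day 7 replicate 3.

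Receptor genes were expressed at low levels. The progesterone receptor gene pgr read 2.56, 3.10 and 2.27 FPKM at day 30, against 1.07, 1.28 and 1.07 FPKM at day 7 (difference 0.76, limma adjusted p = 0.223). The gene with the symbol ar-alpha, whose protein is described as androgen receptor beta, averaged 6.32 FPKM at day 30 and 4.03 FPKM at day 7, and esr1, an oestrogen receptor, averaged 4.44 FPKM at day 30 and 3.39 FPKM at day 7. All values of day 30 were above those of day 7 in these 3 receptors. The upstream genes overlapped between the days. Gonadotropin-releasing hormone gnrh1 read 10.96, 8.09 and 11.73 FPKM at day 30, against 6.21, 12.82 and 4.21 FPKM at day 7, and kiss-2, a kisspeptin, averaged 6.87 FPKM at day 30 and 9.68 FPKM at day 7. The list of GnRH and kisspeptin genes, which includes both npb entries, had 3 of 7 positive and none that passed.

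The glucocorticoid-responsive genes were mostly higher at day 30 in sign. Of 18 tested, 16 had a positive difference with a median of 0.24, 7 were higher and 0 lower at an unadjusted p under 0.05, and none passed. Over all genes 53.6% were positive, and 5.05% were higher and 3.30% lower at that p. Rescaling left 16 positive with a median of 0.21. The FKBP5-like gene LOC101157675, a chaperone of the glucocorticoid receptor that the receptor itself induces in mammals, read 6.45, 5.54 and 7.36 FPKM at day 30, against 2.33, 3.25 and 3.57 FPKM at day 7. The days did not overlap, and the difference was 0.88 (SE 0.15, limma adjusted p = 0.0600). The transcription factor gene cebpd averaged 13.5 FPKM at day 30 and 9.02 FPKM at day 7, and pdk4, which restrains pyruvate use, averaged 14.8 FPKM at day 30 and 10.9 FPKM at day 7. The list includes per1, described above.

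Other genes with single low p-values lay outside these systems. The Krüppel-like factor gene klf11 read 4.54, 4.89 and 4.78 FPKM at day 30, against 1.56, 2.51 and 1.69 FPKM at day 7 (difference 0.99, limma adjusted p = 0.0600). Its second copy, LOC101171127, averaged 2.96 FPKM at day 30 and 1.46 FPKM at day 7, while the whole list of 18 Krüppel-like factors had 8 positive and a median of −0.03, which was 0.10 without day 7 replicate 2. The gene LOC105354644, described as transforming growth factor beta receptor type 3, a co-receptor, read 26.17, 15.17 and 18.06 FPKM at day 30, against 6.07, 4.45 and 4.58 FPKM at day 7 (difference 1.76, limma adjusted p = 0.0600). A pyruvate dehydrogenase kinase gene, LOC101175202, averaged 21.0 FPKM at day 30 and 12.1 FPKM at day 7. The TBL1XR1 gene LOC101173456, a corepressor subunit, read 22.45, 20.20 and 22.15 FPKM at day 30, against 26.48, 26.65 and 26.58 FPKM at day 7, a difference of −0.29 without overlap. LOC101160207, annotated in the table with cyclin-dependent kinase inhibitor activity, averaged 9.72 FPKM at day 30 and 19.4 FPKM at day 7 (limma adjusted p = 0.0556).

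A pair of unnamed transcripts lay near 0 at day 30. LOC110013550 read 0.09, 0.07 and 0.04 FPKM at day 30, against 4.32, 6.04 and 4.67 FPKM at day 7 (limma adjusted p = 0.0556), and later libraries had a median of 0.03 and a highest value of 4.64 FPKM. The predicted gene BGI_novel_G000811 was listed at 0.21, 0 and 0 FPKM at day 30, against 9.80, 6.16 and 3.87 FPKM at day 7. No fold is given for either.

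Genes for protein folding had small differences that were nearly all of one sign. The list of cytosolic heat shock and chaperone genes also took in the mitochondrial chaperonin gene hspe1. Of the 42 members of this list tested, 41 were positive with a median of 0.18, and none passed. At an unadjusted p under 0.05, 14 were higher and 0 lower, beside 5.05% and 3.30% of all genes. In 13, every day 30 value was above every day 7 value, beside 8.40% of all genes. HSP90-alpha (LOC101169506) read 104.43, 90.90 and 107.51 FPKM at day 30, against 78.97, 54.64 and 64.15 FPKM at day 7, and the mitochondrial chaperonin gene hspe1 averaged 60.7 FPKM at day 30 and 47.8 FPKM at day 7. The HSPA4-like gene LOC101166977, a nucleotide exchange factor of HSP70, averaged 17.0 FPKM at day 30 and 11.2 FPKM at day 7. The constitutive hsp90ab1 averaged 1054 FPKM at day 30 and 947 FPKM at day 7, a difference of 0.16 that was −0.04 after quantile normalization.

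Of 56 genes of the endoplasmic reticulum chaperones and the unfolded protein response, 48 were positive with a median of 0.15, and none passed. At an unadjusted p under 0.05, 16 were higher and 0 lower, beside 5.05% and 3.30% of all genes. Calreticulin (LOC101160304), a calcium-binding chaperone of glycoproteins, read 73.03, 73.08 and 76.39 FPKM at day 30, against 58.65, 63.19 and 47.08 FPKM at day 7. The stress transcription factor gene xbp1 averaged 96.6 FPKM at day 30 and 70.5 FPKM at day 7. By contrast hspa5, the main chaperone of this compartment, overlapped, with 82.33, 71.51 and 91.63 FPKM at day 30, against 85.27, 61.04 and 61.84 FPKM at day 7. The 91 oxidative phosphorylation genes had 72 positive and a median of 0.12, the 48 translation factors 39 positive and 0.08, and the 76 cytosolic ribosomal proteins 56 positive and 0.05, with none past the threshold in any of the 3 lists. Among translation factors eif4a2, an RNA helicase of initiation, read 69.81, 72.15 and 67.54 FPKM at day 30, against 58.50, 55.62 and 51.22 FPKM at day 7 (limma adjusted p = 0.163).

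Library totals were higher in all 3 samples of day 30 than in those of day 7. After rescaling to the same total, which placed the median of all genes at −0.04 with 6453 of 15947 positive, the heat shock list had 36 of 42 positive and a median of 0.13, the endoplasmic reticulum list 41 of 56 and 0.10, the oxidative phosphorylation list 63 of 91 and 0.06, and the translation factor list 29 of 48 and 0.02. The ribosomal list then had 32 of 76 positive and a median of −0.01, so its sign turned; after quantile normalization it had 23 positive and −0.04. Leaving out day 30 replicate 3 gave medians of 0.12 for heat shock, 0.07 for oxidative phosphorylation and 0.04 for translation factors. Without day 7 replicate 2 the median of the ribosomal list was 0.02. No sequencing batch is labelled, and the part of a batch or of the totals in these differences was not tested.

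Genes of neuronal signalling leaned the other way. Of 63 glutamate and GABA receptor genes tested, 17 were positive and the median was −0.09. In 11, every day 30 value was below every day 7 value, with none above, beside 5.98% and 8.40% of all genes. At an unadjusted p under 0.05, 0 were higher and 8 lower, beside 5.05% and 3.30% of all genes. All 8 of those at an unadjusted p under 0.05 encode glutamate receptors. The NMDA receptor subunit gene grin2b averaged 30.2 FPKM at day 30 and 36.0 FPKM at day 7, and the kainate subunit gene grik5 averaged 17.6 FPKM at day 30 and 20.6 FPKM at day 7. None passed the threshold, and the median was −0.14 after rescaling and −0.11 after quantile normalization.

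For 94 voltage-gated channel genes the count was 35 positive with a median of −0.05. Of them, 5 lay above and 12 below without overlap, beside 8.40% and 5.98% of all genes. None passed the threshold, and at an unadjusted p under 0.05, 2 were higher and 4 lower, beside 5.05% and 3.30% of all genes. After rescaling, the list had 19 positive and a median of −0.10. Without day 7 replicate 1 its median was −0.02. The accessory potassium channel subunit gene kcne4 read 13.88, 9.14 and 10.52 FPKM at day 30, against 5.13, 7.17 and 4.09 FPKM at day 7, the widest positive difference of the list at 0.92. The calcium channel gamma subunit gene cacng5 averaged 5.36 FPKM at day 30 and 9.66 FPKM at day 7. Immediate early genes, which mark recent neuronal activity, had 18 of 25 positive with a median of 0.06, and none passed. Rescaling gave 14 positive and 0.01, and the median ran from 0.02 without day 7 replicate 1 to 0.11 without day 7 replicate 3. The activity gene egr1 read 34.23, 43.35 and 41.55 FPKM at day 30, against 35.17, 42.44 and 41.11 FPKM at day 7, and npas4 averaged 12.8 FPKM at day 30 and 12.1 FPKM at day 7.

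**Figure D5:**
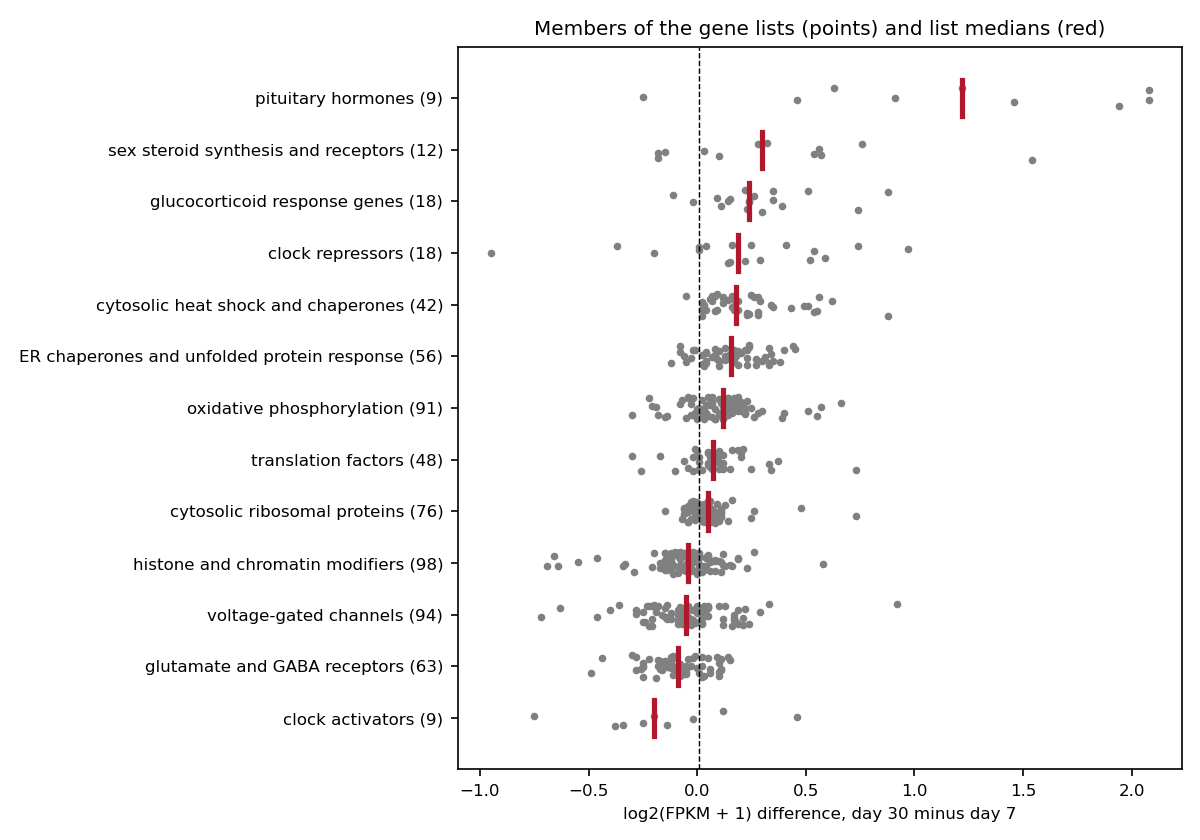
Log2(FPKM + 1) differences of day 30 minus day 7 for the tested members of 13 gene lists (points, number tested in brackets), with each list's median in red and the median of all genes as a dashed line at 0.01. Medians run from 1.22 for pituitary hormones to −0.20 for clock activators, and 41 of 42 heat shock points lie to the right of 0.

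Markers of other cell types and regions of the block were measured beside these lists. The myelin list (17 tested) had a median of 0.02 and summed to 1932 to 2613 FPKM at day 30, against 1481 to 2244 FPKM at day 7. The microglia and leukocyte list (12 tested) had −0.03, with sums of 232 to 358 FPKM at day 30 and 236 to 393 FPKM at day 7. Red blood cell genes (7 tested) summed to 1289 to 2067 FPKM at day 30, against 831 to 2323 FPKM at day 7. Retina genes, 7 of 24 of which passed the filter, summed to 7.26 to 13.4 FPKM at day 30 and 6.50 to 12.4 FPKM at day 7. Telencephalon markers summed to 213 to 251 FPKM at day 30, against 214 to 242 FPKM at day 7, and vessel and meninges markers to 86.6 to 109 FPKM at day 30, against 83.0 to 91.9 FPKM at day 7. The hypothalamus list, with 18 of 23 positive and a median of 0.06, summed to 315 to 326 FPKM at day 30, above the 281 to 308 FPKM of day 7, and had 13 positive and a median of 0.01 after rescaling. In these 7 lists no gene passed the threshold. With 1 library left out, the myelin median ran from −0.01 to 0.11, that of microglia and leukocytes from −0.06 to 0.07, and that of the hypothalamus list from 0.04 to 0.13. The median of the red blood cell genes ran from −0.23 without day 7 replicate 1 to 0.49 without day 7 replicate 2.

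The remaining lists held no gene past the threshold either. Thyroid axis genes had 8 of 11 positive and a median of 0.12. The receptor gene trhr2, for thyrotropin-releasing hormone, averaged 9.22 FPKM at day 30 and 12.1 FPKM at day 7 without overlap. Interferon and antigen presentation genes had 24 of 35 positive (median 0.12), cholesterol synthesis genes 14 of 20 (0.17), cell division genes 20 of 30 (0.06) and matrix genes 46 of 65 (0.07). After rescaling these became 7 of 11 (0.07) for the thyroid axis, 23 of 35 (0.07) for interferon, 13 of 20 (0.12) for cholesterol, 15 of 30 (0.02) for cell division and 41 of 65 (0.02) for matrix. Leaving out 1 library took the thyroid axis median to 0.04 (without day 30 replicate 3) and the cholesterol median to 0.06 (without day 7 replicate 1). The cell division median ran from 0.01 without day 30 replicate 1 to 0.13 without day 7 replicate 3, and the matrix median was lowest at 0.04 without day 7 replicate 1. Deep brain opsins had 5 of 10 positive, and the cold-inducible and photoperiod candidates 4 of 8.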

How the data were processed

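Strand-specific libraries were made from DNase-treated, poly-T selected RNA and read from both ends, per the labels' protocols. The values deposited by the authors are FPKM in 1 table, per the file headers. Alignment and quantification tools Bowtie2 (2.2.5) and RSEM (1.2.12) are listed, per the submitters' processing notes; build and annotation were not given in the sources used here. RSEM divides reads among near-identical copies, so the values of duplicated genes are uncertain. Of 22615 genes, 21722 matched RefSeq identifiers (ASM223467v1, for names only), 893 were predicted genes of the authors, and 9 symbols turned into dates were restored.

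The test was limma (3.58.1, R 4.3.3) on log2(FPKM + 1), which understates changes of low genes, with 1 mean per day over all 20 libraries, a trended prior and 13 residual degrees of freedom (median residual SD 0.157). Day 0 entered only the spread and the filter. P-values are two-sided and Benjamini-Hochberg adjusted over 15947 genes (8822 with a symbol, 6601 with a locus number only, 524 predicted) at a threshold of 0.05. On simulated data for this comparison, 43.3% of 67 genes changed by 0.5 on the log2 scale were recovered. Recovery was 80.6% of 67 genes changed by 1 and 95.5% of 66 changed by 2. There were 7 false calls among the genes left unchanged. Noise was drawn separately for each gene, so the count of false calls does not cover shifts shared by many genes of a library. The simulation held far more changed genes than were called in the real data, which makes the adjusted threshold easier to reach. These rates therefore overstate what could be recovered here. Values have 2 decimals, and depth is unknown.

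Members, lists and tests were chosen with earlier results of these data known, so lists are described by counts and medians beside those of all genes. List entries were corrected by protein name once the table was open. Named genes are those past the threshold, the 12 smallest p-values in each direction, up to 4 by p of most lists, and a fixed set. Lists of radial glia, microglia, red blood cells, retina, vessels, myelin and deep brain opsins were left out of the choice by p. The fixed set held mainly hormone, neuropeptide, sex steroid, clock and chromatin genes, with egr1, npas4, eif4a2 and klf11 among the others. Genes chosen after their values were seen are CIPC, jarid2, kdm7a, the second NR1D1 and NR1D2 genes, PER2, ARNTL1, the second klf11 gene, HSP90-alpha, hsp90ab1, hspa5, pou1f1, pitx1, lhx3 and gnrh1, as well as prmt5, grin2b, nkx2-1, the cryptochromes and the second npb gene. The alternatives changed the pseudocount (0.1), the filter (none, or a mean of 5 FPKM), the scaling (quantile normalization, or equal totals), and the fit: no prior trend, array weights, spread from the 6 libraries only, removal of day 60 replicate 1 with day 150 replicate 2, removal of day 90 replicates 1 and 3, and each library left out. Tables and plots used Python (3.11.15), pandas (2.3.3), numpy (2.4.6) and matplotlib (3.10.9). Some genes are not reported here.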

Additional observations from a re-analysis of the deposited data

How the results depend on the processing

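No paired analysis was possible because the labels give the samples of day 30 and day 7 no shared replicate numbers; the numbers used here follow the order of deposit. The counts of genes higher and lower at day 30 were 0 and 3. They were 4 and 6 at a mean of at least 5 FPKM, 0 and 7 after quantile normalization, 1 and 9 after rescaling to the same total, 4 and 7 with array weights and 3 and 1 with spread from the 6 libraries only. Removing day 60 replicate 1 with day 150 replicate 2 gave 3 and 5, and removing day 90 replicates 1 and 3 gave 2 and 3. With 1 library left out, 0 to 3 genes were higher and 1 to 6 lower. A pseudocount of 0.1, no filter or no prior trend kept 0 and 3, though without the filter 2 of the 3 genes remained and NR1D1 was at limma adjusted p = 0.0554. The 6-library fit called none of the 3. It called npb, BGI_novel_G000796 and BGI_novel_G000798 higher at day 30 and LOC110013550 lower. The difference of hsp90ab1 was 0.16 and changed sign to −0.04 after quantile normalization. The near-zero differences of egr1 and npas4 changed sign as well. For egr1 this was after quantile normalization (−0.01), after rescaling (−0.05) and with array weights (−0.02). Its sign also changed without day 7 replicate 1 (−0.08) or day 30 replicate 2 (−0.06) or 3 (−0.03). For npas4 the change was without day 30 replicate 3 (−0.02). With 1 library left out, egr1 ran from −0.08 to 0.10 and npas4 from −0.02 to 0.14. The cause of these shifts was not tested. With 3 samples a day and depth unknown, a gene that missed the threshold is not shown to be level.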

Other observations

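Other genes stood apart at day 30 with no test past the threshold. The predicted gene BGI_novel_G000299, whose protein is described as a KRI1 homolog, read 2.21, 1.1 and 0.81 FPKM at day 30, against 3.89, 3.91 and 4.26 FPKM at day 7, and all 11 libraries of days 60 to 150 lay below its lowest day 7 value. LOC111946480, whose protein shares its description with that of BGI_novel_G000811, averaged 4.32 FPKM at day 30 and 18.6 FPKM at day 7, and its later libraries ran up to 53.63 FPKM. LOC101165125, which encodes a centriole, cilia and spindle-associated protein, averaged 6.21 FPKM at day 30 and 11.8 FPKM at day 7. These last 2 were chosen after their values were seen. Among genes higher at day 30, naaa, a lysosomal amidase of fatty acid ethanolamides, read 6.13, 5.10 and 6.41 FPKM at day 30, against 3.47, 3.67 and 2.85 FPKM at day 7 (limma adjusted p = 0.103). The mitochondrial genes mrpl57, of the mitochondrial ribosome, and mtch2, of the outer membrane, averaged 13.5 and 39.4 FPKM at day 30, against 10.3 and 30.0 FPKM at day 7, and LOC101171816, annotated in the table with cytochrome-c oxidase activity, averaged 184 FPKM at day 30 and 147 FPKM at day 7. None of the 3 overlapped between the days.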
